A study of Mus musculus with 17 samples.

Results

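Ubiquitin-specific proteases (USPs) form the largest family of deubiquitinases, the enzymes that take ubiquitin off proteins or trim ubiquitin chains. The transcripts of this family were examined in the diaphragm, the main breathing muscle, of 17 male C57BL/6J mice at 4 months of age. The genes were chosen by name: all symbols of the table that begin with Usp and a digit and hold no hyphen, 1 further symbol left out, which gave 57 of 47643 symbols. The rule used names and no measured value. It was chosen with earlier results of these data known. The Control group (n = 5) had no tumor and was injected with a mock solution of albumin in buffered saline, and the Control + rFibcd1 group (n = 5) had no tumor and received a recombinant C-terminal piece of mouse Fibcd1 into the peritoneal cavity. The LLC group (n = 3) had Lewis lung carcinoma cells placed beneath the skin of both flanks and was mock-injected, and the LLC + rFibcd1 group (n = 4) carried the same tumor and received rFibcd1. Lewis lung carcinoma is a single transplanted mouse tumor line that makes its host lose muscle, so the tumor effect here is that of 1 line. Each sample is 1 mouse.

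Muscle breaks down much of its protein through the ubiquitin-proteasome system, in which ligases attach ubiquitin chains and the proteasome degrades the tagged protein. Deubiquitinases work against the ligases, recycle ubiquitin and edit the signals that ubiquitin carries on histones, receptors and mitochondria. Most USPs share a cysteine protease fold and differ in the parts that choose the substrate. Among those known from muscle or from the daily clock, Usp19 has been studied in muscle wasting and Usp2 is a rhythmic transcript under control of the clock. Usp6nl carries the family's name by sequence likeness only: it is a GTPase-activating protein for Rab proteins and no protease. Usp46os1 and Usp46os2 are RNAs from the strand opposite Usp46, and the other 55 symbols are protein-coding genes.

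Levels are given in TPM, reads per gene length scaled to the same total in each mouse, so that genes can be compared with each other. The recovered depth was 50.7 to 54.5 reads per mouse in units of 1000000, and 1 TPM of a transcript of 1000 bases stood for 23.9 to 26.7 reads. Of the 57 genes, 43 reached 1 TPM in at least 3 mice and were tested. Another 12 were measured below that level, and 2, Usp46os1 and Usp9y, are listed at 0 in every mouse. Among those below it, Usp43 reached 0.740 TPM and Usp27x, a histone deubiquitinase, reached 0.676 TPM, with 38 to 85 and 23 to 71 reads per mouse. The remaining ones, Usp17la, Usp17lb, Usp17lc, Usp17ld, Usp17le, Usp26, Usp29, Usp44, Usp46os2 and Usp51, stayed at or below 0.0704 TPM. The Usp17l genes are near-identical copies, between which the counting could divide reads.

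The tested genes spanned a wide range, with 5 of them over 50 TPM in Control, 13 between 10 and 50 TPM and 25 under 10 TPM. Control mice summed to 722 ± 17.8 TPM over all 57 genes and Control + rFibcd1 mice to 691 ± 31.8 (SD, n = 5 each), against 714 ± 23.1 for LLC mice (SD, n = 3) and 673 ± 14.5 for LLC + rFibcd1 mice (SD, n = 4). The 5 most abundant genes held 50.7% ± 0.969 of that sum in Control (SD, n = 5). They were Usp2 at 99.9 ± 12.8 TPM, Usp47 at 77.9 ± 4.32, Usp13 at 70.2 ± 3.16, Usp15 at 67.0 ± 3.46 and Usp19 at 51.2 ± 2.04 (SD, n = 5 each). In that order the ranges of Usp47 and Usp13 overlapped over the Control mice, and so did those of Usp13 and Usp15, whereas Usp2 lay above Usp47 and Usp15 above Usp19 without overlap. Usp25, at 29.8 ± 2.17 TPM (SD, n = 5), came next, below Usp19 without overlap.

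**Figure D1:**
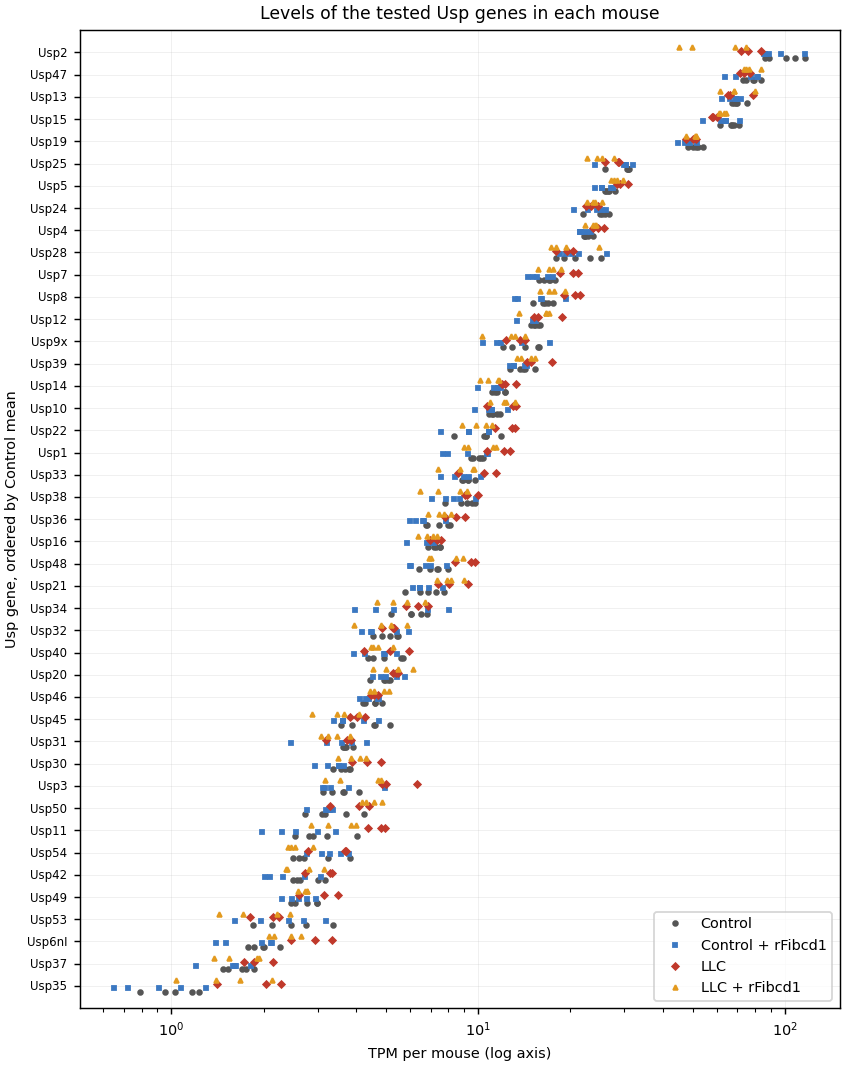
TPM of the 43 tested Usp genes on a log axis, with 1 point per mouse and genes ordered by their Control mean. Usp2 stood highest in Control, the 3 lowest points of its row were LLC + rFibcd1 mice, and Usp35 had the lowest Control mean of 1.03 TPM.

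The spread between mice was small for most of the family. The coefficient of variation over the 5 Control mice had a median of 7.75% over the tested genes and ran from 2.63% for Usp12, which acts with Wdr48 on receptors and histones, to 23.5% for Usp53. Over all 17 mice the ratio of the highest to the lowest value was 1.20 for Usp19 and 3.49 for Usp35, the ends of that range, with a median of 1.54.

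Usp2 was the gene of the family that set tumor-bearing mice apart from tumor-free mice. Its protein removes ubiquitin from regulators such as the period proteins of the clock. The Control mice had 116, 101, 88.5, 86.1 and 108 TPM, and the Control + rFibcd1 mice 89.1, 86.0, 116, 97.0 and 85.4 TPM. The LLC mice had 72.1, 75.8 and 83.6 TPM, and the LLC + rFibcd1 mice 49.8, 45.2, 68.6 and 74.9 TPM. All 7 tumor-bearing mice thus lay below all 10 tumor-free mice, by a narrow gap between 83.6 and 85.4 TPM, and the lowest values were those of a pair of rFibcd1-injected mice. It was the only one of the 43 tested genes without overlap between these groups. That is 2.33% of them, near the 2.26% of all genes tested with this pattern.

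The difference of Usp2 between tumor-bearing and tumor-free mice was -0.55 ± 0.10 on the log2 scale of TPM + 1 (SE; limma, adjusted p = 0.00212). In LLC + rFibcd1 against Control + rFibcd1 it was -0.68 ± 0.14 (adjusted p = 0.0105), a call that was lost in a fit of these groups alone (adjusted p = 0.0644) and with Dunn's test (adjusted p = 0.178). In LLC against Control, where the groups also did not overlap, it was -0.36 ± 0.15, which did not pass the test on deposited TPM (adjusted p = 0.0762) but passed under each of 3 other scalings (adjusted p = 0.0297 to 0.0367). The tumor effect was not shown to differ between rFibcd1- and mock-injected mice (interaction -0.32 ± 0.21, adjusted p = 0.675). Usp2 was the most abundant Usp transcript in each of the 10 tumor-free mice, and ranked 1, 2 and 1 in the LLC mice and 5, 5, 2 and 1 in the LLC + rFibcd1 mice. In bulk muscle, fewer cells that hold a transcript and less of it per cell cannot be told apart.

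Transcripts of the daily clock were counted beside Usp2. The clock runs as a loop in which Arntl and Clock drive the genes of their own repressors, and Dbp, Tef and Hlf are transcription factors at its output. Of 11 tested clock genes in a list written beside Usp2, 7 fell and 2 rose in LLC + rFibcd1 against Control + rFibcd1 (median -0.81 on the log2 scale, against 0.11 over all genes, of which 8.06% passed). In LLC against Control, where Usp2 did not overlap between the groups, only 1 of the 11 passed (35.8% of all genes did, 6.02% lower), Nr1d2, a repressor of the loop, which fell by 0.40. In LLC + rFibcd1 against LLC 2 fell, Dbp and Hlf (0.113% of all genes passed). Both calls were lost in a fit of these groups alone, with Dunn's test, and with the replicate number as a block or a score of B cell markers as a covariate. They were also lost without LLC replicate 1, LLC + rFibcd1 replicate 1 or LLC + rFibcd1 replicate 4. In each of these fits 0 of all genes passed. For the interaction 0 of the 11 passed in limma, so that the tumor effect on these genes was not shown to differ between rFibcd1- and mock-injected mice. Dbp stood at 73.4, 47.0, 70.1 and 70.3 TPM in the LLC + rFibcd1 mice, below every one of the LLC mice at 154, 123 and 146 TPM. The log2 difference was -1.12 ± 0.19 (SE; limma with all 4 groups, adjusted p = 0.0383), a call lost in the fits named above. Arntl averaged 3.14 ± 1.58 TPM over Control mice and 2.70 ± 0.502 over Control + rFibcd1 mice (SD, n = 5 each), 3.87 ± 0.927 over LLC mice (SD, n = 3) and 11.4 ± 3.76 over LLC + rFibcd1 mice (SD, n = 4). In Dbp, Tef, Hlf, Per3 and Ciart all 4 LLC + rFibcd1 mice lay below the 13 other mice, in Arntl they lay above them, and in the other 5 clock genes they overlapped them. The share of all genes that set these 4 mice apart from the 13 others is not given here. For Usp2, 3 of these 4 mice had the 3 lowest values and the other lay among the LLC mice. The hour of dissection was not given in the sources used here, and its part in the Usp2 difference was not tested.

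Promoter windows are shown for 4 genes. Usp2 and Usp50 passed in rFibcd1-injected mice, and Usp35 and Usp6nl were among the genes with the largest rises. Usp11 and Usp3, which rose more than Usp6nl in LLC against Control, are not shown. Each window runs from 250 bases before a RefSeq transcription start to 50 after it, on build GRCm38.p6, at chr9:44084670-44084969 on the plus strand for Usp2, chr2:126783411-126783710 on the minus strand for Usp50, chr7:97332060-97332359 on the minus strand for Usp35 and chr2:6322507-6322806 on the plus strand for Usp6nl. The annotated genes span chr9:44067021-44095627, chr2:126709096-126783470, chr7:97309380-97332020 and chr2:6322667-6446390 in the same order. Capitals mark a GC box (GGGCGG, or CCGCCC on the other strand) or an E-box (CACGTG, the same on both strands).
Usp2: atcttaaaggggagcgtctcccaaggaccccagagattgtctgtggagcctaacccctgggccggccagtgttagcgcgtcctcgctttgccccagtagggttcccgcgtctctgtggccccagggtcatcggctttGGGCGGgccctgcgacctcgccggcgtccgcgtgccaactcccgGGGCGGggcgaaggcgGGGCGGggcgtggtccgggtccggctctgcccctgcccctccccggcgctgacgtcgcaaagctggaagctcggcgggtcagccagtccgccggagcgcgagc
Usp50: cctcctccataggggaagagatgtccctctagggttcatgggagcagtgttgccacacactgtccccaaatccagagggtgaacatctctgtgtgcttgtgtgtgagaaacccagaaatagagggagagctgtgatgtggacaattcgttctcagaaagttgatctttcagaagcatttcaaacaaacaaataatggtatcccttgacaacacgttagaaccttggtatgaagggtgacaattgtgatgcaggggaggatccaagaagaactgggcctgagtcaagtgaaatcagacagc
Usp35: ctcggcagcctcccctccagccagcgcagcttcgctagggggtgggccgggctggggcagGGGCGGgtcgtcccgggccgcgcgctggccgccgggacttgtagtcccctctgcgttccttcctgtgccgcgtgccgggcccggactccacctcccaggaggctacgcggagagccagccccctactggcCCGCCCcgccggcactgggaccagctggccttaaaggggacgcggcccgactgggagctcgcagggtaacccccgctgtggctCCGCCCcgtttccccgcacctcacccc
Usp6nl: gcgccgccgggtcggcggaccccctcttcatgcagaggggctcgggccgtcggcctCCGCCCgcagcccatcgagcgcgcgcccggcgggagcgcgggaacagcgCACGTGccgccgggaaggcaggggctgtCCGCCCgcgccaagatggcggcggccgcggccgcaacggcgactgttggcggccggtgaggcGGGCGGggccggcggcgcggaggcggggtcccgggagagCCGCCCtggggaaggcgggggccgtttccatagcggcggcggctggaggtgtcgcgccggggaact

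The Usp2 window held 3 GC boxes and 71.7% G and C, the Usp35 window 3 GC boxes and 75.3%, and the Usp6nl window printed here 4 GC boxes, 1 E-box and 80.3%, while the Usp50 window held none of these letters and 47.0% G and C. Usp6nl has a second RefSeq window, at chr2:6352486-6352785 on the plus strand, with 1 GC box, no E-box and 50% G and C. The Usp2 start lies 17899 bases inside the gene as annotated, and 2 of its 9 annotated transcripts begin within 100 bases of it. RefSeq windows were at hand for 44 of the 57 genes, 45 windows in all. An E-box stood in 5 of these 45 (11.1%, those of Usp4, Usp6nl, Usp16, Usp31 and Usp32) and in 7.15% of all 32851 windows of that length. The D-box TTATGTAA, the letters that Dbp, Tef and Hlf bind, searched on both strands, stood in none of the 45 and in 0.938% of all windows. A GC box stood in 28 of the 45 (62.2%) and in 35.7% of all windows. The 32851 windows were not limited to genes tested here, whereas 34 of the 44 Usp genes with a window were tested.

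LLC against Control asked which transcripts a tumor changes in mock-injected mice. Here 9 Usp genes rose and 1 fell, 10 of 43 (23.3%), where 35.8% of all genes tested passed, 29.7% higher and 6.02% lower. The values of 14 genes did not overlap between the groups (32.6%), against 40.2% of all genes. The family's median log2 change was 0.11 and that of all genes 0.16, so a change is also given relative to the median gene where the scale matters. By role, 2 of 8 histone and chromatin genes rose (Usp3 and Usp7), 2 of 7 of DNA repair and cell cycle (Usp11 and Usp48), 2 of 7 of endosome and receptor sorting (Usp6nl and Usp8), 1 of 3 of free ubiquitin and the proteasome (Usp5) and 1 of 2 of splicing (Usp4), and of the 3 mitochondrial genes Usp35 rose and Usp15 fell.

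Usp35, which acts at mitochondria, showed the largest rise. Its level was 1.02, 1.23, 1.17, 0.787 and 0.955 TPM in the Control mice and 2.27, 1.41 and 2.04 TPM in the LLC mice. The Control + rFibcd1 mice had 1.30, 0.913, 0.651, 0.722 and 1.08 TPM, and the LLC + rFibcd1 mice 1.03, 1.67, 2.12 and 1.40 TPM. Every LLC mouse lay above every tumor-free mouse, whereas 1 LLC + rFibcd1 mouse lay among them. The log2 difference of LLC against Control was 0.51 ± 0.15 (SE; limma, adjusted p = 0.0187), or 0.35 above the median gene. At 86 to 300 reads per mouse, Usp35 is among the thinly covered genes of the family, and the added pseudocount of 1 TPM makes its change on this scale smaller than the ratio of means of 1.85.

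Usp11, a deubiquitinase of DNA repair encoded on the X chromosome, had 2.80, 4.03, 2.90, 3.21 and 2.54 TPM in Control and 4.81, 4.37 and 4.95 TPM in LLC. It had 3.44, 2.55, 1.97, 2.29 and 3.00 TPM in Control + rFibcd1 and 3.23, 3.85, 4.01 and 2.84 TPM in LLC + rFibcd1. The LLC mice lay above all other mice, and the rise over Control was 0.49 ± 0.13 (adjusted p = 0.0165). Usp48, which acts on histone H2A, had 7.32, 7.95, 6.97, 7.39 and 6.44 TPM in Control and 9.45, 8.38 and 9.78 TPM in LLC, a rise of 0.31 ± 0.10 (adjusted p = 0.0226). Its Control + rFibcd1 values were 7.89, 6.78, 6.05, 5.99 and 7.04 TPM and its LLC + rFibcd1 values 6.997, 8.46, 8.91 and 6.92 TPM. In LLC + rFibcd1 mice, Usp48 thus overlapped both tumor-free groups and the LLC group.

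Usp3 and Usp7 act on histones, and Usp7 also on the p53 pathway. Usp3 had 4.08, 3.65, 3.13, 3.62 and 3.33 TPM in Control and 5.02, 4.84 and 6.32 TPM in LLC, a rise of 0.48 ± 0.14 (SE; limma, adjusted p = 0.0176). In Control + rFibcd1 it had 4.98, 3.80, 3.32, 3.11 and 3.16 TPM and in LLC + rFibcd1 3.54, 4.70, 4.81 and 3.18 TPM. The first Control + rFibcd1 mouse thus reached the level of the LLC mice. For Usp7 the Control mice had 17.2, 17.8, 16.99, 16.4 and 15.7 TPM and the LLC mice 20.3, 18.5 and 21.1 TPM, a rise of 0.23 ± 0.07 (adjusted p = 0.0188), only 0.07 above the median gene. It had 17.6, 16.8, 15.1, 14.5 and 15.6 TPM in Control + rFibcd1 and 17.02, 18.6, 17.5 and 15.6 TPM in LLC + rFibcd1.

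Usp8 and Usp6nl work in the sorting of receptors through endosomes, Usp8 by removing ubiquitin from receptors and Usp6nl by switching off a Rab protein. The Usp8 level was 17.6, 16.9, 16.5, 16.3 and 15.1 TPM in Control and 21.4, 19.0 and 20.8 TPM in LLC, a rise of 0.29 ± 0.10 (adjusted p = 0.0318). Control + rFibcd1 mice had 19.3, 15.97, 13.2, 13.5 and 16.2 TPM of it and LLC + rFibcd1 mice 17.03, 19.2, 17.7 and 15.9 TPM. Only 1 tumor-free mouse, the first of Control + rFibcd1, lay within the LLC range of Usp8. Usp6nl had 2.00, 2.26, 1.86, 1.99 and 1.77 TPM in Control and 2.93, 2.44 and 3.35 TPM in LLC, a rise of 0.39 ± 0.11 (SE; limma, adjusted p = 0.0158). Its values were 2.12, 2.11, 1.51, 1.39 and 1.97 TPM in Control + rFibcd1 and 2.15, 2.65, 2.46 and 2.09 TPM in LLC + rFibcd1, so that the LLC mice exceeded all 10 tumor-free mice.

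Usp4, linked to splicing, and Usp5, which takes apart free ubiquitin chains, rose by only 0.12 and 0.14 on the log2 scale, under the median gene, and both changed sign under median-ratio scaling and under quantile normalization, where neither passed. Usp15, which counteracts the ubiquitin ligase parkin, fell. It had 68.2, 61.4, 67.5, 70.8 and 67.0 TPM in Control and 58.0, 59.9 and 58.5 TPM in LLC, all below the Control mice (-0.18 ± 0.07, SE; limma, adjusted p = 0.0434). In rFibcd1-injected mice it had 61.9, 71.4, 64.5, 54.1 and 64.2 TPM without a tumor and 64.1, 63.4, 61.4 and 60.9 TPM with one, a difference of -0.01 ± 0.06 that did not pass (adjusted p = 0.915).

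These calls rested on few mice. Without LLC replicate 3, 0 of the 43 genes passed in limma in LLC against Control (11 had an unadjusted p under 0.05), where 0.18% of all genes passed, and without LLC replicate 1 only 1 did, against 17.1% of all genes. With each of the 17 mice omitted in turn, Usp15 passed 7 times, Usp4 11 times and Usp5 and Usp8 12 times. The calls also changed with the scaling of the values. Mitochondrially encoded transcripts took 41.3% to 44.3% of TPM in LLC and 45.9% to 48.4% in Control, without overlap, and 43.7% to 50.4% in the rFibcd1-injected mice. LLC mice also had more genes at 1 TPM or more, 12763 to 13413 against 11798 to 12473 in Control. The part of these differences in the calls was not tested. With median-ratio scaling 4 of the 43 Usp genes rose (Usp3, Usp6nl, Usp11 and Usp35) and 7 fell, among them Usp2, Usp15 and Usp19, where 14.4% of all genes rose and 15.3% fell. Under quantile normalization 0 rose and 16 fell, where 11.3% of all genes rose and 23.9% fell. After rescaling without the mitochondrially encoded genes 5 rose and 4 fell, where 18.7% of all genes rose and 11% fell. Usp15 fell under all of these scalings.

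**Figure D2:**
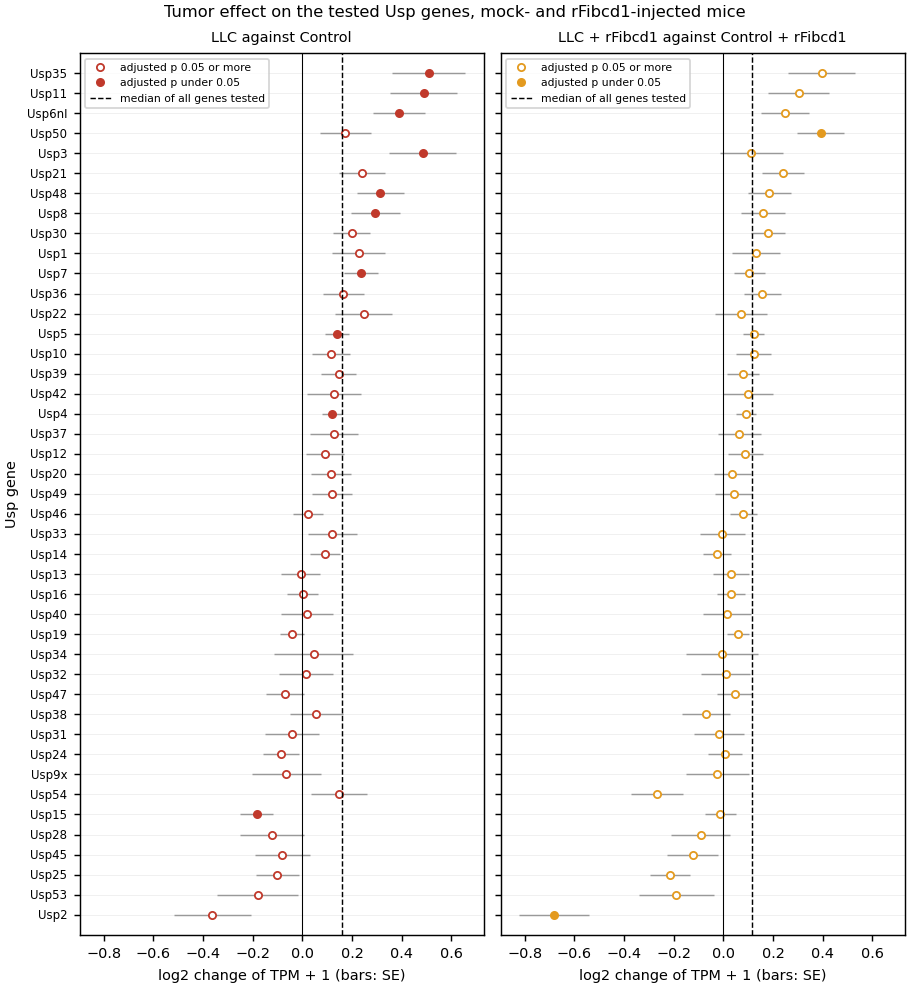
log2 change of TPM + 1 with its SE for the 43 tested Usp genes, LLC against Control on the left and LLC + rFibcd1 against Control + rFibcd1 on the right. Filled points passed at an adjusted p under 0.05 (10 on the left, 2 on the right), and the dashed lines mark the median of all genes tested, 0.16 and 0.11. Under median-ratio scaling Usp4 and Usp5, filled on the left, changed sign.

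LLC + rFibcd1 against Control + rFibcd1 put the same question to rFibcd1-injected mice and shared no mouse with the comparison before. It gave 2 calls of 43 (4.65%), where 8.06% of all genes passed: Usp2, described above, and Usp50. Without Control + rFibcd1 replicate 1 the count was 8, where 21.7% of all genes passed. Usp50 is a short, little-studied USP on chromosome 2. Its values were 2.77, 3.20, 3.29, 3.37 and 3.25 TPM in Control + rFibcd1 and 4.85, 4.31, 4.58 and 4.17 TPM in LLC + rFibcd1, without overlap. The Control mice had 3.18, 4.23, 3.09, 2.72 and 3.72 TPM and the LLC mice 4.08, 3.30 and 4.42 TPM, which overlapped. The log2 difference in rFibcd1-injected mice was 0.39 ± 0.09 (SE; limma, adjusted p = 0.0218), and in mock-injected mice it was 0.17 ± 0.10 and did not pass (adjusted p = 0.191). The interaction for Usp50 was 0.22 ± 0.14 and did not pass either (adjusted p = 0.671). Its rise in rFibcd1-injected mice lost its call without LLC + rFibcd1 replicate 3 (adjusted p = 0.0651) and under the other scalings (adjusted p = 0.0528 to 0.301).

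**Figure D3:**
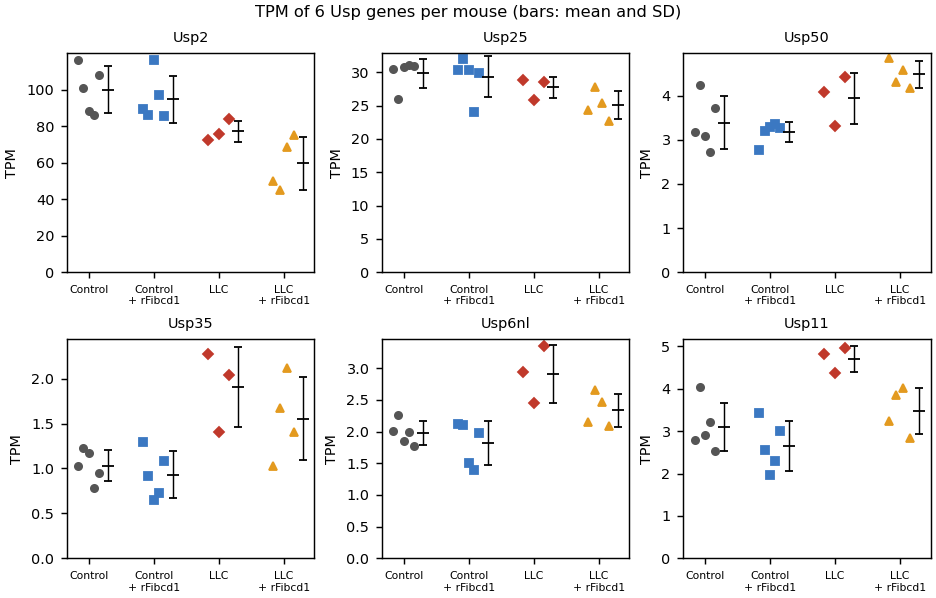
TPM of Usp2, Usp25, Usp50, Usp35, Usp6nl and Usp11 in each mouse of the 4 groups, with the mean and SD beside the points and all axes starting at 0. The 7 tumor-bearing mice lay between 45.2 and 83.6 TPM of Usp2, below every tumor-free mouse, and the 3 LLC mice lay above every tumor-free mouse for Usp35, Usp6nl and Usp11.

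With all 7 tumor-bearing mice set against all 10 tumor-free mice, 13 Usp genes rose and 2 fell, 15 of 43 (34.9%), where 44.8% of all genes passed, 38.8% higher and 5.98% lower. These mice are the same as in both comparisons above, so the counts are no independent support for each other. The largest rises were those of Usp35 (0.44 ± 0.10, SE; limma, adjusted p = 0.00448), Usp11 (0.37 ± 0.09, adjusted p = 0.00656), Usp6nl (0.30 ± 0.07, adjusted p = 0.00555) and Usp50 (0.29 ± 0.07, adjusted p = 0.00548). Also higher were Usp3 by 0.27, Usp21, a histone deubiquitinase, by 0.24, Usp48 by 0.23, Usp8 by 0.21, Usp30 by 0.18, Usp7 by 0.15, Usp36, an enzyme of the nucleolus, by 0.15, Usp5 by 0.13 and Usp4 by 0.10. Of these, Usp4, Usp5 and Usp7 changed sign under median-ratio scaling and quantile normalization, and Usp30 and Usp36 under quantile normalization. Without a change of sign, Usp3, Usp8, Usp21, Usp48 and Usp50 lost their calls under both of these scalings. Usp6nl and Usp11 lost theirs under quantile normalization.

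Usp25, an enzyme of protein quality control at the endoplasmic reticulum, fell along with Usp2. It had 30.5, 26.0, 30.8, 31.1 and 30.9 TPM in Control and 28.8, 25.9 and 28.5 TPM in LLC. Control + rFibcd1 mice had 30.3, 32.0, 30.4, 24.0 and 29.9 TPM and LLC + rFibcd1 mice 24.3, 27.8, 25.4 and 22.7 TPM. All 7 tumor-bearing mice lay below 8 of the 10 tumor-free mice, and the other 2 were low in their own groups. The difference was -0.17 ± 0.06 (adjusted p = 0.0315) as deposited, and -0.26 to -0.33 under the 3 other scalings, each of which also called it. The call was lost with a score of B cell markers as a covariate (-0.20, adjusted p = 0.138) and with the replicate number as a block (-0.17, adjusted p = 0.0599).

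**Figure D4:**
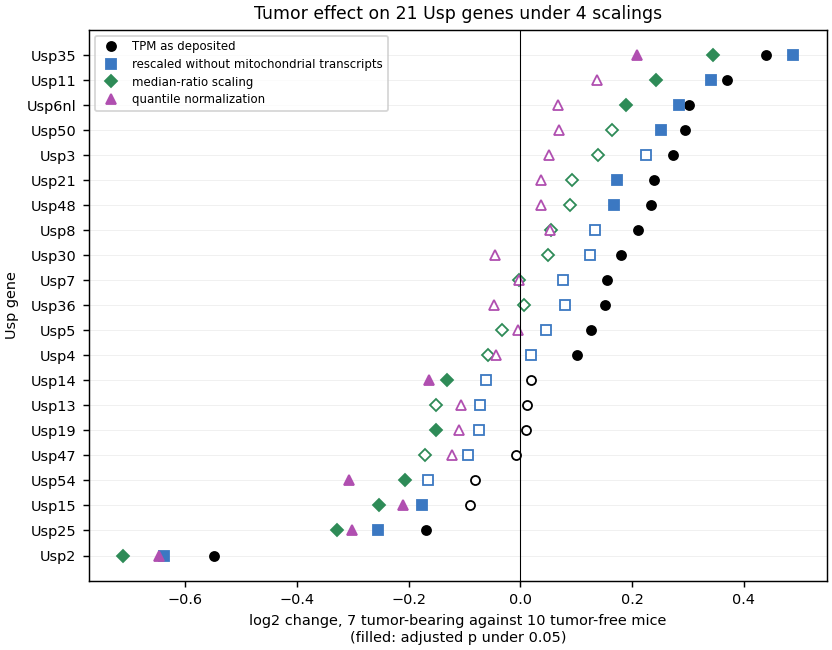
log2 change of tumor-bearing against tumor-free mice for 21 Usp genes under 4 scalings of the same values, filled where the adjusted p was under 0.05. Usp2 stayed between -0.55 and -0.71 and filled throughout, Usp25 and Usp35 were also filled throughout, and Usp4, Usp5 and Usp7 crossed 0 under median-ratio scaling and quantile normalization.

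Counts of calls split differently by scaling here too. Under median-ratio scaling 3 of the 43 were higher and 12 lower, where 17.8% of all genes were higher and 18.3% lower. Quantile normalization gave 1 higher and 19 lower, where 13.7% of all genes were higher and 25% lower. Rescaling without mitochondrially encoded genes gave 6 higher and 3 lower, where 25.2% of all genes were higher and 11.3% lower. Usp35 rose and Usp2 and Usp25 fell under all 4. Without LLC replicate 1 or LLC replicate 3, neither of Usp7 and Usp8 passed, nor did Usp3. With each mouse omitted in turn, Usp25 passed 11 times of 17 and Usp36 7 times. Usp2 passed with any 1 of the 17 mice left out (adjusted p = 0.00132 to 0.00528).

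Several USPs with a known place in muscle, at mitochondria or at the proteasome did not pass in LLC against Control. Usp19 had 51.3, 48.4, 52.1, 50.2 and 53.9 TPM in Control and 51.3, 47.6 and 50.3 TPM in LLC (-0.04 ± 0.05, SE; limma, adjusted p = 0.524), but under the 3 other scalings it fell there, by 0.15 to 0.24 (adjusted p = 0.0356 to 0.0487). It had 49.2, 47.3, 51.7, 44.9 and 48.5 TPM in Control + rFibcd1 and 51.4, 47.6, 51.3 and 51.1 TPM in LLC + rFibcd1, so that all groups overlapped. Usp30, which removes ubiquitin from the outer mitochondrial membrane and opposes mitophagy, had 3.56, 3.68, 3.79, 3.82 and 3.37 TPM in Control and 4.82, 3.87 and 4.34 TPM in LLC. These did not overlap, but the difference of 0.20 ± 0.07 narrowly missed the threshold (adjusted p = 0.0509). Its levels were 3.53, 3.51, 2.93, 3.24 and 3.64 TPM in Control + rFibcd1 and 4.13, 4.30, 3.84 and 3.50 TPM in LLC + rFibcd1.

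Usp14 works on the proteasome itself. Its transcript shares 26.0% of its exon length with Thoc1 on the other strand, whose reads could not be told apart from its own if strand was not used. It had 12.2, 11.4, 11.5, 12.2 and 11.1 TPM in Control and 11.96, 12.3 and 13.2 TPM in LLC (0.09 ± 0.06, adjusted p = 0.252). In Control + rFibcd1 it had 11.9, 11.6, 11.2, 10.01 and 11.6 TPM and in LLC + rFibcd1 11.6, 11.7, 10.7 and 10.1 TPM. The abundant Usp47, an enzyme of base excision repair, had 79.3, 74.6, 78.8, 83.8 and 72.8 TPM in Control, 69.5, 81.8, 77.8, 64.0 and 81.4 in Control + rFibcd1, 71.4, 73.8 and 77.0 in LLC and 83.4, 76.6, 73.6 and 74.6 in LLC + rFibcd1. Usp13, a relative of Usp5, had 68.5, 67.3, 75.5, 69.9 and 69.5 TPM in Control, 62.2, 69.4, 71.9, 69.1 and 66.2 in Control + rFibcd1, 65.1, 78.9 and 66.2 in LLC and 80.1, 61.6, 68.0 and 68.4 in LLC + rFibcd1. Neither passed in tumor-bearing against tumor-free mice, where their log2 differences were -0.01 ± 0.05 for Usp47 and 0.01 ± 0.05 for Usp13.

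LLC + rFibcd1 against LLC asked what rFibcd1 changes in mice with a tumor, and shared the LLC mice with the first comparison. With limma, 0 of 43 Usp genes passed after adjustment, where 0.113% of all genes did, and with Dunn's test 0. At an unadjusted p under 0.05 there were 8 (18.6%, against 22.7% of all genes): Usp2, Usp3, Usp7, Usp11, Usp14, Usp22, Usp48 and Usp54, each with a lower mean in LLC + rFibcd1. The smallest p belonged to Usp7, with -0.21 ± 0.07 (adjusted p = 0.185), and to Usp14, with -0.17 ± 0.06 (adjusted p = 0.200). The family's median was -0.11, as was that of all genes. Between these groups 5 Usp genes did not overlap (11.6%, against 14.6% of all genes).

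Without a tumor, in Control + rFibcd1 against Control, limma called 0 of 43 Usp genes (0% of all genes), Dunn's test called 0 and 0 had an unadjusted p under 0.05 (4.39% of all genes did). The smallest p were those of Usp19 (-0.08 ± 0.04, adjusted p = 0.927) and Usp36 (-0.13 ± 0.07, adjusted p = 0.927). Usp36 had 7.98, 8.11, 6.74, 6.79 and 7.46 TPM in Control, 7.87, 6.29, 6.63, 5.98 and 6.67 in Control + rFibcd1, 8.46, 7.79 and 9.03 in LLC and 6.87, 7.44, 7.72 and 8.19 in LLC + rFibcd1. The interaction of tumor and rFibcd1 was not past the threshold for any of the 43 genes in limma (0% of all genes passed), and 1 had an unadjusted p under 0.05, against 8.58% of all genes. This was Usp54, with -0.42 ± 0.15 (adjusted p = 0.391). It had 2.604, 3.24, 2.70, 2.50 and 3.83 TPM in Control and 3.69, 2.78 and 3.71 in LLC, and 3.79, 3.56, 3.11, 2.77 and 3.29 in Control + rFibcd1 and 2.40, 2.90, 2.44 and 2.53 in LLC + rFibcd1. Usp3 had the next smallest p, with an interaction of -0.37 ± 0.19 (adjusted p = 0.614).

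Genes that work beside the USPs were counted in the same way, from lists written out by name. Of 42 tested genes of other deubiquitinase families and their relatives, 10 rose and 1 fell in LLC against Control, with a median of 0.12, where 29.7% of all genes rose, 6.02% fell and the median was 0.16. The list also holds proteases of SUMO and relatives better known for other work, and the 10 include Senp1, a SUMO protease, Pan2, which works in the shortening of mRNA tails, and Eif3f and Eif3h, subunits of a translation initiation factor. Also among the 10 were Stambpl1 (0.64 ± 0.13, SE; limma, adjusted p = 0.00942), a JAMM-type enzyme of endosomes, and Psmd14 (0.18 ± 0.05, adjusted p = 0.0136), the deubiquitinase of the proteasome lid. The 1 that fell was Otud6b (-0.21 ± 0.06, adjusted p = 0.0232). Of 12 partner proteins, 3 rose: Wdr48, the activator of Usp1, Usp12 and Usp46, Atxn7l3, which holds Usp22 in its complex, and Hgs, which works with Usp8 at endosomes. Of 6 genes for ubiquitin and its activating enzymes, Ubb, Rps27a and Uba1 rose. These list counts come from limma on deposited TPM alone. Without LLC replicate 3, 0.18% of all genes passed in LLC against Control, and with Dunn's test 0%. Of all calls there, 83.2% were higher on deposited TPM and 48.5% under median-ratio scaling. In tumor-bearing against tumor-free mice the counts were 14 higher and 1 lower of the 42, 6 higher of the 12 and 5 higher of the 6, where 38.8% of all genes were higher and 5.98% lower.

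Markers of other cells differed between the groups along with these genes. The diaphragm label fitted the myofiber markers, whose 8 genes summed to 31376 to 39474 TPM in every mouse, and 3 of them fell in LLC against Control. All 4 B cell markers used here (Ms4a1, Cd79a, Cd79b and Cd22) rose there, and their sum ran from 2.19 to 79.5 TPM in Control, 2.84 to 114 in Control + rFibcd1, 187 to 237 in LLC and 15.6 to 229 in LLC + rFibcd1. All 5 T cell markers rose as well, from sums of 0.748 to 9.52 TPM in Control to sums of 15.5 to 26.7 in LLC, and none of the listed markers was at 0 throughout. All 3 tested neutrophil markers rose too, with list sums of 0.834 to 12.8 TPM in Control and 40.3 to 98.2 in LLC, and they also rose in LLC + rFibcd1 against Control + rFibcd1, where Usp2 and Usp50 passed, from sums of 2.22 to 74.2 TPM to sums of 50.8 to 194. In that comparison none of the B cell, T cell, macrophage or proliferation markers passed, 2 of 4 endothelial markers rose and 1 of 8 myofiber markers fell. In tumor-bearing against tumor-free mice, where Usp2 and Usp25 fell, 4 of 8 myofiber markers fell, and all 4 B cell, all 5 T cell and all 3 tested neutrophil and proliferation markers rose, with 2 of 4 macrophage and 2 of 4 endothelial markers. All 3 tested proliferation markers, 2 of 4 macrophage markers and 1 of 4 endothelial markers rose in LLC against Control. No adipocyte or mesothelial marker passed there, with mean sums of 172 and 66.0 TPM in Control and 535 and 108 in LLC. In tumor-bearing against tumor-free mice 1 of 3 mesothelial markers rose. The part of neutrophil and myofiber RNA in the Usp2, Usp25 and Usp50 differences was not tested. Across the groups the B cell score, the mean log2 level of the 4 markers, ran from 0.48 to 4.43 in tumor-free mice, 5.21 to 5.58 in LLC and 2.01 to 5.51 in LLC + rFibcd1.

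With that score as a covariate, chosen with the marker levels known, limma called 0 Usp genes in LLC against Control (0 had an unadjusted p under 0.05), where 0.0676% of all genes passed. The 10 calls lost there had differences of 0.07 to 0.21 for the 9 genes that had risen and -0.17 for Usp15. The score did not overlap between these groups, at 0.48 to 3.98 in Control and 5.21 to 5.58 in LLC. Score and tumor therefore cannot be told apart in this fit of LLC against Control. Only Usp2 passed in tumor-bearing against tumor-free mice (-0.51, adjusted p = 0.0454), where 4.88% of all genes did. Usp2 and Usp50 still passed in LLC + rFibcd1 against Control + rFibcd1, where 4.58% of all genes did. Within the 10 tumor-free mice, levels of 3 Usp genes rose with the score, 6.98% of the 43 against 16.4% of all genes. This fit was added after the data were seen. The slopes per unit of score were 0.08 for Usp48 (limma, adjusted p = 0.0107), 0.10 for Usp8 (adjusted p = 0.0136) and 0.12 for Usp11 (adjusted p = 0.0249), against a median of 0.04 over all genes. The count rested on 1 mouse, since it was 0 without Control + rFibcd1 replicate 1, the tumor-free mouse with the highest score. Under median-ratio scaling 3 other genes passed, Usp10, Usp13 and Usp19, all with falling slopes. The shares of all genes passing in these other slope fits are not given here. Among the tumor-free mice the slope of Usp2 was -0.03 ± 0.04 on deposited TPM and -0.09 under median-ratio scaling, and it did not pass in either.

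**Figure D5:**
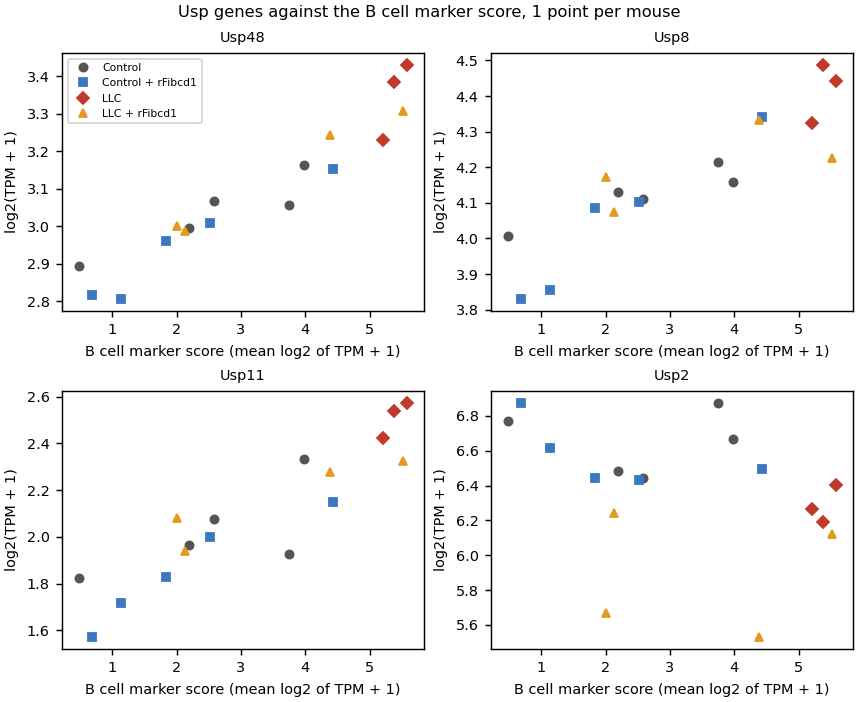
log2(TPM + 1) of Usp48, Usp8, Usp11 and Usp2 against the B cell marker score, with 1 point per mouse and symbols by group. Usp48, Usp8 and Usp11 lay higher in mice with higher scores, from 0.48 to 5.58, also among the tumor-free mice, while the 3 lowest values of Usp2 were those of LLC + rFibcd1 mice, whose scores ran from 2.01 to 5.51. Under median-ratio scaling no slope of Usp48, Usp8 or Usp11 passed.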

How the data were processed

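RNA from the diaphragm of 17 mice in 4 groups was sequenced as paired reads. The sources name 2 different library kits and sequencers, so it is not known whether strand was used. The authors trimmed and filtered the reads, aligned them to GRCm38 (mm10 in the submitters' processing notes) in CLC Genomics Workbench and deposited TPM per gene. The annotation release is not given in the sources used here. Symbols were matched to GENCODE vM21 (94.6% of 47643), and depth was recovered from the low TPM values, of which 82.9% to 85.6% per mouse fell within 0.02 of a whole read (4% by chance).

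The 13305 genes at 1 TPM or more in 3 samples or more were fitted as log2(TPM + 1), a scale that understates changes of low genes. One limma 3.58.1 model with an expression trend (R 4.3.3) held all 4 groups, with 13 residual degrees of freedom, two-sided tests, Benjamini-Hochberg adjustment over all genes and a threshold of 0.05. It replaced the study's rank test, which is an alternative here (Dunn's test). The fit was tested on simulated data. Genes were named as the 6 and 5 largest called changes in LLC against Control and over all tumor-bearing against tumor-free mice, those called in any other comparison (or the 2 with the smallest p), the 5 most abundant in Control, and Usp2, Usp14, Usp19 and Usp30. Usp25 was given per mouse after its values were seen. The members, lists and tests were chosen with earlier results of these data known. One marker of the B cell list is not reported here and was left out of the score. No mouse was left out and 0 columns lacked a sample. Promoters are RefSeq windows, and no protein sequences were used.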

Additional observations from a re-analysis of the deposited data

Results flagged for a closer look

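Values were examined for a single distant mouse in 63 groups of 4 or 5 mice (21 Usp genes), of which chance alone would set apart about 1 in 20, and 4 were found. Usp19 was 47.6 TPM in LLC + rFibcd1 replicate 2, while the other 3 mice of the group lay between 51.1 and 51.4 TPM. Usp25 was 26.0 TPM in Control replicate 2, where the others lay between 30.5 and 31.1 TPM, and 24.0 TPM in Control + rFibcd1 replicate 4, where the others lay between 29.9 and 32.0 TPM. Usp50 was 2.77 TPM in Control + rFibcd1 replicate 1, below the other 4 at 3.20 to 3.37 TPM. The effect of rFibcd1 on Usp50 pointed in opposite directions with a tumor (0.16 on the log2 scale) and without one (-0.06). The difference between them, 0.22, had an unadjusted p of 0.137 for the interaction in limma and did not pass.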

How the results depend on the processing

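The counts of 0 for both rFibcd1 comparisons and for the interaction were 0 under every alternative run. The others moved, and the cause was not tested except where fewer genes or mice entered. With at least 5 TPM required, 29 Usp genes were tested and 6 passed in LLC against Control, 1 in LLC + rFibcd1 against Control + rFibcd1 and 9 over all tumor-bearing against tumor-free mice (39.4%, 13% and 49.8% of all genes). Quantile normalization gave 16 in LLC against Control (35.2% of all genes) and 1 for the B cell slope in tumor-free mice. For the slope, the share of all genes under this and the other alternatives is not given here. Rescaling without mitochondrially encoded genes gave 9 over all tumor-bearing against tumor-free mice. The B cell covariate gave 0 in LLC against Control and 1 over all tumor-bearing against tumor-free mice. Dunn's test gave 0 in LLC against Control and 0 in LLC + rFibcd1 against Control + rFibcd1, where a fit of these groups alone gave 1, Usp50, and lost Usp2. Leaving out 1 mouse at a time gave 0 to 12 in LLC against Control (0 without LLC replicate 3, 1 without LLC replicate 1 and 5 without Control replicate 5), 1 to 8 in LLC + rFibcd1 against Control + rFibcd1 (8 without Control + rFibcd1 replicate 1, 1 without LLC + rFibcd1 replicate 3), 11 to 17 over all tumor-bearing against tumor-free mice (0.18% to 39.5%, 3.59% to 21.7% and 31.3% to 49.8% of all genes) and 0 to 6 for the slope (6 without Control replicate 5, 5 without Control + rFibcd1 replicate 2 and 0 without replicate 1 of that group). With the replicate block, 0 Usp genes passed in LLC against Control, 1 in LLC + rFibcd1 against Control + rFibcd1 and 9 over all tumor-bearing against tumor-free mice (0.0376%, 3.7% and 28.4% of all genes). Same-numbered mice correlated above 0.1 in 4 of 22 pairs (r from -0.46 to 0.49). The labels give only a number, and whether it stands for a batch was not tested. Signs turned under median-ratio scaling and quantile normalization, respectively, for Usp4 (-0.079 and -0.072) and Usp5 (-0.060 and -0.030) in LLC against Control and, over all tumor-bearing against tumor-free mice, for Usp4 (-0.058 and -0.044), Usp5 (-0.033 and -0.0048) and Usp7 (-0.0018 and -0.0027), and under quantile normalization for Usp30 (-0.046) and Usp36 (-0.047). Median-ratio scaling moved the median of all genes from 0.16 to -0.01 in LLC against Control and quantile normalization to -0.10. Groups of 3 to 5 mice and transcripts such as Usp35, with 86 to 300 reads, limit what these data can resolve.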
